A study of Lathyrus oleraceus subsp. biflorus and Lathyrus oleraceus and [Pisum sativum] subsp. abyssinicum with 117 samples.

Results

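Seed coats of the accession JI261 were compared with seed coats of JI1794. Both accessions are wild peas (Pisum elatius, given as Lathyrus oleraceus subsp. biflorus in the organism field), and their plants grew in a glasshouse with no treatment. The other accessions used for context are the wild pea JI64, the cultivar Cameor and the landrace JI92 (both Pisum sativum), and PI358617 (Pisum abyssinicum). The comparison used 16 of the 117 RNA-seq libraries of a study of seed tissues in 6 pea accessions, chosen by the tissue, accession and stage in their labels. JI261 had 8 libraries and JI1794 had 8, with 2 at each of the developmental stages D1, D3, D4 and D5. None of the 117 libraries is a JI261 seed coat of D2, and the 2 JI1794 libraries of D2 serve only as a neighbouring time point. The labels give no days for a stage, and nothing in them states that both libraries of a group are from different plants. The p-values therefore measure the spread between these libraries, which may be technical. The question addressed is how far gene expression in the seed coat differs within wild peas.

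The seed coat, or testa, grows from the integuments of the ovule, so it carries the genotype of the mother plant and not that of the embryo. It first passes sugars and amino acids to the embryo and later hardens, gains pigments and forms the outer barrier of the dry seed. Wild peas have a seed coat that keeps water out, which holds the seed dormant, and this trait was largely lost in cultivated peas.

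The libraries held 60316207 to 69470186 counts in JI261 and 65570366 to 77882912 in JI1794. The 2 libraries of a group had Spearman correlations of log2 levels of 0.949 to 0.984, while libraries of JI261 and JI1794 at the same stage correlated at 0.777 to 0.845. Replicates of every group differed by more than sampling noise, with a median squared deviation across features at least 6.30 times that of binomial sampling. The files pair no identifier with a gene name, and 0 identifiers matched the supplied table of 65673 pea genes, which belongs to another assembly. Features are therefore given by identifier, without a function, and were grouped by lists built from PI358617, which takes no part in the comparison.

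The seed coat identity of the libraries was checked with 300 genes enriched in the PI358617 seed coat and 300 enriched in its embryo. The seed coat list made up 13.4% to 30.5% of counts in JI261 seed coats and 9.26% to 19.97% in JI1794 seed coats. In embryos it made up 0.0720% to 0.269% in JI261 and 0.197% to 0.499% in JI1794. The 50 genes most abundant in the embryo reached 3.54% of the counts of a JI261 seed coat and 3.42% of a JI1794 seed coat, against 17.8% to 40.2% in JI261 embryos and 7.36% to 38.8% in JI1794 embryos. The labelled tissue thus matched the lists in all 16 libraries. Some embryo transcripts were counted in the seed coats, and fewer cells of a type cannot be told apart from less RNA per cell in such bulk samples.

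JI261 seed coats at D3 lay nearer to an early state than JI1794 seed coats at D3. A stage score was computed in each library as the mean log2 level of 300 genes high late in PI358617 seed coats (D5 over D1) minus that of 300 genes high early. At D1 the score was -4.19 and -4.15 in JI261, against -4.05 and -4.29 in JI1794, and the libraries of the accessions overlapped. At D3 it was -1.18 and -1.17 in JI261, against 3.53 and 3.49 in JI1794. At D4 it was 3.00 and 2.83 in JI261, against 4.41 and 4.30 in JI1794. At D5 it was 4.99 and 5.01 in JI261, against 5.83 and 5.84 in JI1794. From D3 on, JI261 lay below JI1794 in every library, by most at D3. The JI1794 libraries of D2 averaged 0.22, which lies between the JI1794 scores of D1 and D3 and above those of JI261 at D3.

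**Figure D1:**
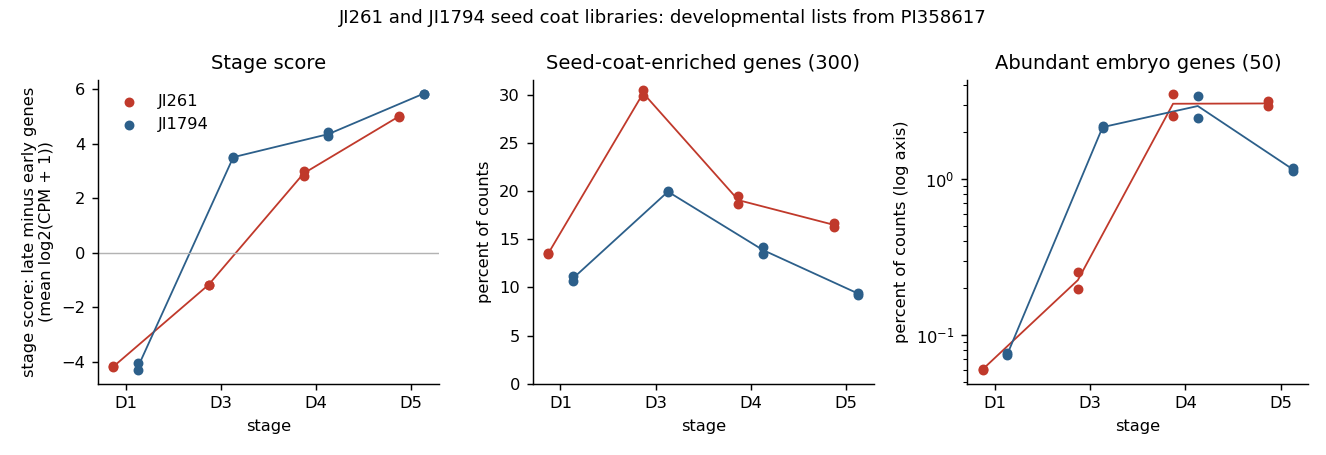
Stage score (mean log2(CPM + 1) of late minus early genes), percent of counts in 300 seed-coat-enriched genes and percent of counts in 50 abundant embryo genes (log axis) in each of the 16 seed coat libraries by stage. Points are libraries and lines join the means of 2. JI261 lies below JI1794 in stage score from D3 on, above it in seed-coat-enriched genes at every stage, and below it in abundant embryo genes at D3 (0.254% and 0.197% against 2.13% and 2.18%).

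The lists behind the score were also counted gene by gene. At D3 the test called 13852 of 30789 features (45%), 5649 higher in JI261 (18.3%) and 8203 lower (26.6%). Of 298 early genes tested there, 213 were higher in JI261 and 15 lower, with a median log2 difference of 2.84. Of 297 late genes, 9 were higher and 246 lower, with a median of -3.66. The median over all features was -0.11. The score is built from these same lists, so the counts describe it gene by gene and are no separate evidence.

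Embryo genes were counted next, and they overlap the late genes: 32 of the 50 abundant embryo genes and 67 of the 300 embryo-enriched genes are late genes too. Summed, the 50 abundant embryo genes reached 0.254% and 0.197% of counts in JI261, against 2.13% and 2.18% in JI1794, and 36 of the 50 were lower in JI261 at D3 and 7 higher. In each JI261 library of D3, 4 of the 50 had no count, against 1 in each JI1794 library. Of 266 embryo-enriched genes tested, 42 were higher and 119 lower, with a median of -1.14. Whether embryo material in the samples takes part in the difference at D3 was not tested at that stage. Over all stages, with the log2 share of the abundant embryo genes as a covariate, 16791 features passed, against 15422 without it.

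Other stages gave other balances of these lists. At D1 the test called 10781 features (35%), 6094 higher in JI261 (19.8%) and 4687 lower (15.2%). Without replicate 1 of JI261 at D1 it called 6741, and without replicate 2 it called 6821. Of the late genes, 148 were higher in JI261 at D1 and 29 lower (median 1.56), while of the early genes 87 were higher and 20 lower (median 0.68). Summed, the abundant embryo genes reached 0.0611% and 0.0599% of counts in JI261, against 0.0767% and 0.0752% in JI1794, although 34 of the 50 were called higher in JI261 and 2 lower (median 3.12). Their summed share and their median thus differed in sign at D1, when 6 of the 50 had no count in each JI261 library and 9 and 12 had none in the JI1794 libraries.

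At D4 the test called 11853 features (38.5%), 5294 higher in JI261 (17%) and 6559 lower (21.3%). Of the early genes, 115 were higher and 32 lower (median 0.78), and of the late genes 53 were higher and 137 lower (median -0.73). At D5 it called 15605 (50.7%), 7662 higher (24.9%) and 7943 lower (25.8%), and the median absolute log2 difference was 1.53, against 0.96, 1.23 and 1.05 at D1, D3 and D4. Of the early genes, 117 were higher at D5 and 29 lower (median 0.85), and of the late genes 87 were higher and 131 lower (median -0.31). The imbalance of the late genes was smaller at D4 and D5 than at D3, by their medians.

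The abundant embryo genes stood on the other side at the later stages. At D4 their summed share was 3.54% and 2.55% in JI261, against 2.47% and 3.42% in JI1794, with overlapping libraries, and 24 of the 50 were higher in JI261 and 9 lower (median 0.58). At D5 it was 3.17% and 2.95% in JI261, against 1.13% and 1.18% in JI1794, and 30 were higher and 8 lower (median 2.43). The libraries did not overlap at D5, and the part of embryo material in the D5 difference was not tested. Of the 266 embryo-enriched genes, 118 were higher in JI261 and 18 lower at D1 (median 1.48), 72 and 57 at D4 (0.07), and 86 and 85 at D5 (median 0). With library totals alone the median at D4 was -0.01, on the other side of 0.

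More of the seed-coat-enriched genes were higher in JI261 than lower at each stage. At D1 their summed share was 13.5% and 13.4% in JI261, against 10.6% and 11.2% in JI1794. At D3 it was 30.5% and 29.8% in JI261, against 19.97% and 19.9% in JI1794. At D4 it was 19.5% and 18.6% in JI261, against 13.5% and 14.2% in JI1794. At D5 it was 16.3% and 16.7% in JI261, against 9.26% and 9.44% in JI1794. The shares did not overlap between the accessions at any stage. Of the 300 genes, 159 were higher and 35 lower at D1 (median 0.69), 137 and 98 at D3 (0.40), 139 and 55 at D4 (0.47), and 206 and 49 at D5 (1.80). With library totals alone the median at D3 was 0.01, beside a median of -0.50 over all features. Of the list, 24 genes are also late genes and 25 also early genes.

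**Figure D2:**
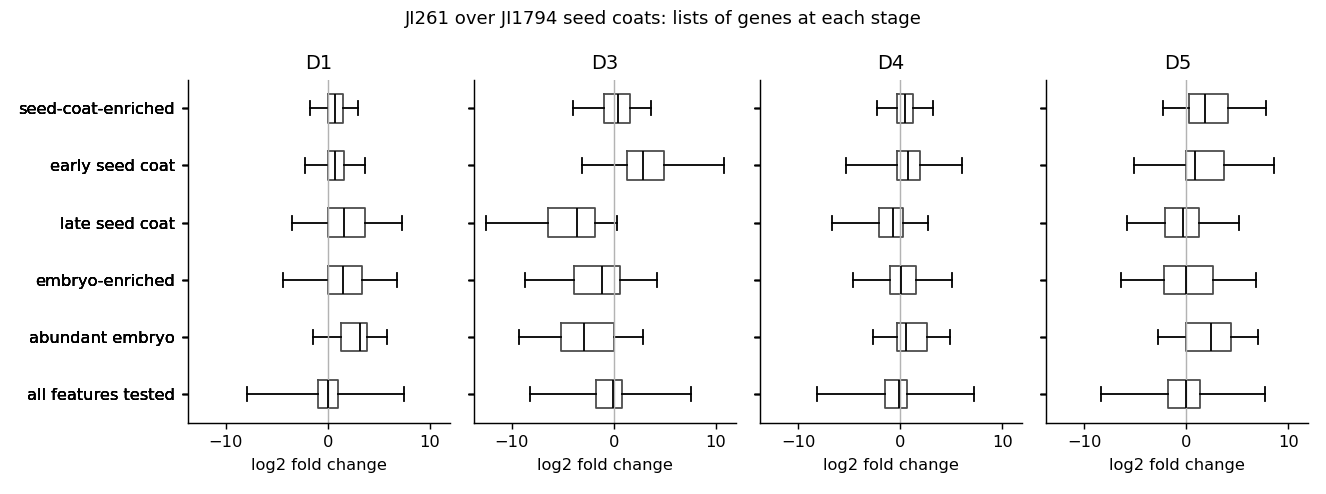
Log2 fold change of JI261 over JI1794 seed coats for the genes of 5 PI358617 lists and for all 30789 features tested at each stage. Boxes span the quartiles with the median, and whiskers reach the 5th and 95th percentiles. At D3 the early genes lie to the right of 0 (median 2.84) and the late and abundant embryo genes to the left (medians -3.66 and -2.89).

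The profiles of whole libraries were compared next, and they did not repeat the order of the stage scores. Spearman correlations across the 30789 features were computed between stage means, as a description, since the features share libraries and lengths and are not independent. JI261 at D3 correlated at 0.809 with JI1794 at D2 and at 0.808 with D3. JI261 at D4 correlated at 0.846 with JI1794 at D3 and at 0.831 with D4. JI261 at D5 correlated at 0.828 with JI1794 at D3, 0.824 at D4 and 0.775 at D5. JI261 at D1 was nearest to JI1794 at D1 (0.825). At D4 and D5, JI261 was thus nearest to an earlier stage of JI1794. At D3, where the stage scores lay farthest apart, D2 and D3 of JI1794 were nearly level. At D5 the profile was nearest to JI1794 at D3, although the JI261 scores lay above those of JI1794 at D3 and D4.

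The stage of the highest level differed in many genes. Of 11058 features with a mean of at least 5 CPM (counts scaled to 1 TMM library size over all libraries) in both accessions, 49.4% had their highest mean at the same stage, 29.2% at a later stage in JI261 and 21.5% at an earlier one. Of the 2616 that were highest at D3 in JI1794, 32.3% were highest at D3 in JI261, 20.7% at D4, 36% at D5 and 11% at D1. Over all 11058 features, 21.1% were highest at D3 in JI261, 16.6% at D4, 33.3% at D5 and 29% at D1. The share at D5 was thus near that of all features.

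When the JI1794 libraries of D2 stood in for those of D3, 6616 of 31429 features were higher in JI261 at D3 and 8515 lower. This setting was chosen after the stage scores were seen. Both comparisons share the JI261 libraries of D3. Against D2, 138 early genes were higher and 33 lower (median 1.02), and 52 late genes were higher and 143 lower (median -1.01). Against D3 the same lists had medians of 2.84 and -3.66. D2 was chosen for its stage score, which these lists make up, so their smaller shift against D2 follows from the choice. The number of calls, 15131 of 31429 features against D2 and 13852 of 30789 against D3, was not fixed by it. These counts come from fits with different libraries and features, and the difference between them was not tested.

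Over all 4 stages, with stage as a term, 15422 of 30789 features differed between JI261 and JI1794 (50.1%). Of these 6960 were higher in JI261 (22.6%) and 8462 lower (27.5%). With library totals alone in place of TMM scaling, 5248 were higher and 10824 lower, so the balance of directions depends on the scaling. At least a 1-unit log2 difference was reached by 5119 of the higher and 6519 of the lower features, and at least 4 units by 2707 and 3840. The libraries of the accessions did not overlap at any stage in 3313 features higher in JI261 (10.8%) and 3817 lower (12.4%). The count rested on treating the 2 libraries of a group as separate samples. With the libraries of a group summed, 1634 passed, and with replicate 1 or replicate 2 of every group left out, 919 or 1147 passed. With the stage score as a covariate 10223 passed, 5559 higher and 4664 lower.

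**Figure D3:**
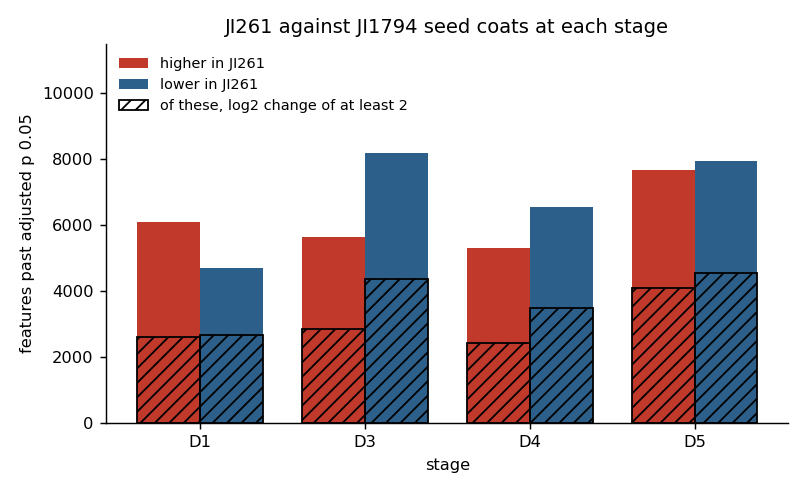
Number of features past the threshold at each stage, higher (left bar) and lower (right bar) in JI261 than in JI1794 seed coats. Hatching marks those with an absolute log2 fold change of at least 2. D5 had the most calls, 7662 higher and 7943 lower.

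With library totals alone, 3929 were higher and 7348 lower at D1, 4161 and 10873 at D3, and 4013 and 8657 at D4, against 7541 and 8002 at D5. The median over all features was -0.43 log2 units over all stages with library totals and -0.16 with TMM scaling, so the scaling moved the middle of the whole table. At D1 the majority of calls turned from higher to lower. Changes are therefore read relative to the median of all features.

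A set of features kept the same direction through development. Of the 21819 called at 1 stage or more, 2117 were higher in JI261 at all 4 stages and 1894 lower at all 4. Another 3619 were called higher at a stage and lower at another. Between D3 and D5, 664 were higher in JI261 at D3 and lower at D5, and 1326 were lower at D3 and higher at D5.

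In each comparison of the accessions, features are named by a rule: past the threshold, no overlap of libraries, at least 5 CPM in the higher accession and at least 3 counts in every library of the lower one, with features already named left out. Features with fewer counts in the lower accession can have larger fitted differences. Over all stages, the largest difference upward within the rule was in Psat5g198680. It had 38.4 and 37.5 CPM at D1, 87.7 and 64 at D3, 44.6 and 42.5 at D4 and 85.2 and 74.9 at D5 in JI261. In JI1794 it had between 0.03 and 0.21 CPM in all 8 libraries. The log2 difference was 9.24 (SE 0.26, adjusted p = 4.04e-11), and the gap between the libraries follows from the naming rule.

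The most abundant feature of that kind was Psat4g108560. In JI261 it had 160 and 158 CPM at D1, 17900 and 21000 at D3, 5380 and 6050 at D4 and 609 and 584 at D5. In JI1794 it had 78.5 and 66.0 CPM at D1, 985 and 1000 at D3, 278 and 513 at D4 and 0.962 and 1.08 at D5. JI261 was higher at each of these stages and had its highest sampled level at D3. JI1794 had its highest level at D2 (1740 and 1640 CPM), a stage without JI261 seed coat libraries. The accessions lay farthest apart in this feature at D5 (log2 difference over all stages 4.23, SE 0.90, adjusted p = 0.00179). With the libraries of a group summed its adjusted p was 0.115.

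Psat5g277760 had the largest downward difference within the rule over all stages. It had 0.0879 and 0.0732 CPM at D1, 36.1 and 47.8 at D3, 0.359 and 0.200 at D4 and 0.0556 and 0.0549 at D5 in JI261. In JI1794 it had 172 and 170 CPM at D1, 1050 and 1040 at D3, 361 and 515 at D4 and 19.5 and 17 at D5. In JI261 it was under 1 CPM at every sampled stage but D3, and in JI1794 it was highest at D2, at 2480 and 2130 CPM (log2 difference -8.86, SE 0.95, adjusted p = 7.84e-06).

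Psat2g028040, the most abundant of the lower features, had 137 and 145 CPM at D1, 244 and 349 at D3, 63.6 and 64.9 at D4 and 79.0 and 83.5 at D5 in JI261. In JI1794 it had 324 and 207 CPM at D1, 2190 and 1970 at D3, 674 and 1010 at D4 and 393 and 400 at D5. The seed coats of JI261 were lower at each stage (log2 difference -2.46, SE 0.35, adjusted p = 7.69e-05; 0.0638 with the libraries of a group summed). The embryos went the other way at D4 and D5, with 49.7 to 124 CPM in JI261 and 0.350 to 1.69 CPM in JI1794, and the test of tissue by accession gave a seed coat minus embryo difference of -7.87 (SE 0.24, adjusted p = 7.84e-14).

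**Figure D4:**
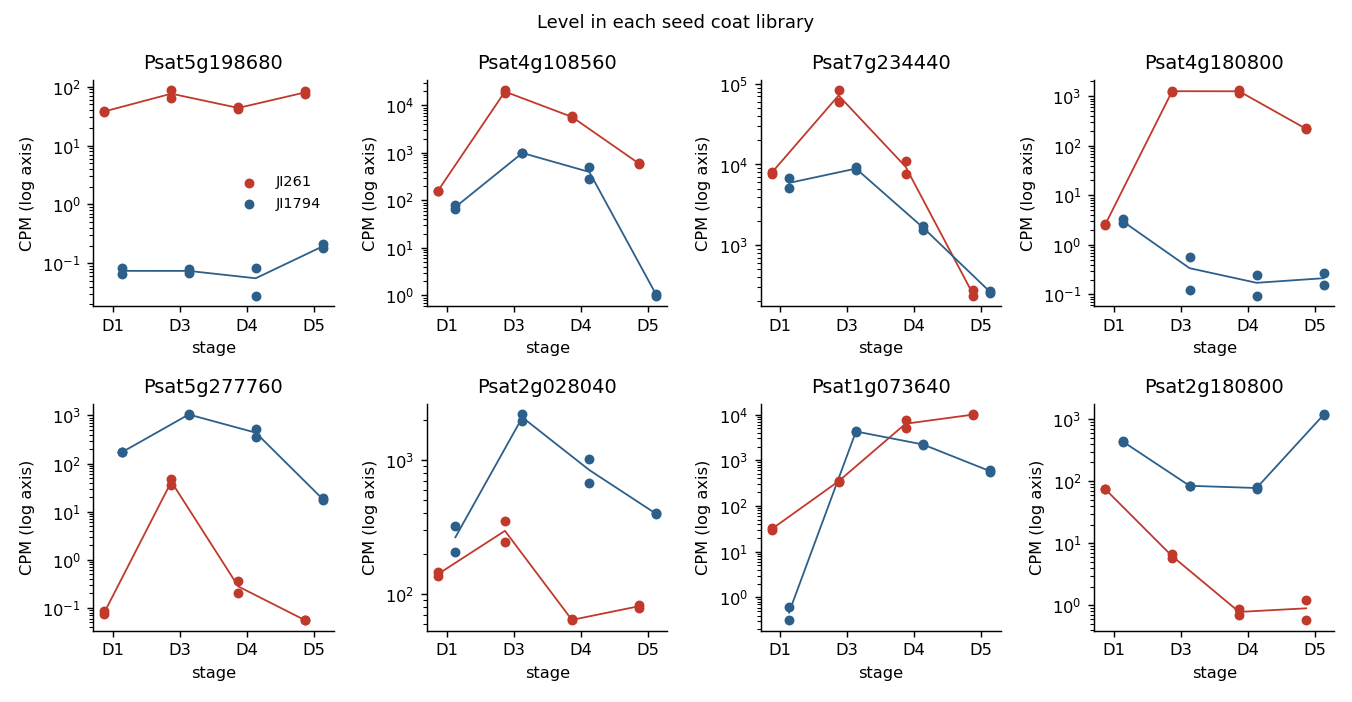
CPM (log axes) of 8 features in each seed coat library by stage. Points are libraries and lines join the means of 2, with D2 not drawn. Psat5g198680 keeps JI261 above JI1794 at every stage, Psat4g180800 is separate from D3 on, and Psat1g073640 is lower in JI261 at D3 and higher at D1, D4 and D5.

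At D1 the largest difference upward within the naming rule was in Psat6g070000, with 198 and 200 CPM in JI261, against 0.181 and 0.475 CPM in JI1794 (log2 difference 9.34, SE 0.40, adjusted p = 2.69e-08). It stayed apart at the later stages, with 137 to 402 CPM in JI261 and 0.363 to 3.28 CPM in JI1794, and in the embryos, with 30.0 to 151 CPM in JI261 and 0 to 1.35 CPM in JI1794. Psat1g177520, the most abundant, had 2530 and 2420 CPM in JI261, against 499 and 739 CPM in JI1794 (2.10, SE 0.26, adjusted p = 7.52e-05). Both accessions lost most of that transcript by D5, to 43.8 and 41.3 CPM in JI261 and 17 and 16.9 CPM in JI1794.

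Downward at D1, Ps_DOR2genes.35503, a locus outside the annotation, had 0.231 and 0.0488 CPM in JI261, against 221 and 219 CPM in JI1794 (-10.48, SE 0.45, adjusted p = 1.05e-06). It was a transcript of the early coat in JI1794, at 0.980 and 0.748 CPM by D3. Psat6g015280 had 139 and 135 CPM in JI261, against 3070 and 2910 CPM in JI1794 (-4.36, SE 0.14, adjusted p = 2.63e-09). Its gap closed with age, to 105 and 101 CPM in JI261 and 88.5 and 91.3 CPM in JI1794 at D5 (0.19, adjusted p = 0.219).

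At D3 the most abundant transcript of JI261 was Psat7g234440, which was also the most abundant feature called upward within the naming rule. It had 59700 and 83800 CPM in JI261, against 9280 and 8510 CPM in JI1794 (log2 difference 2.91, SE 0.21, adjusted p = 5.07e-07). That was 4.93% and 6.43% of all counts of the JI261 libraries, whose 10 most abundant features took 18.2% and 20.9%. In JI1794 Psat7g234440 was highest at D2 (18400 and 15300 CPM), a stage without JI261 seed coat libraries. At D1 and D5 its difference did not pass (adjusted p = 0.0689 and 0.870), with 7670 and 8060 CPM at D1 and 274 and 233 CPM at D5 in JI261, against 6730 and 5080 CPM and 256 and 272 CPM in JI1794.

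Psat0s4118g0160 had the largest difference upward at D3 within the naming rule, with 921 and 967 CPM in JI261, against 0.0672 and 0.285 CPM in JI1794 (12.28, SE 0.82, adjusted p = 2.42e-07). In JI261 it was already high at D1 (593 and 629 CPM) and had fallen to 1.31 and 1.33 CPM by D5. Downward, Psat3g067480 had 0.243 and 0.230 CPM in JI261, against 244 and 241 CPM in JI1794 (-10.10, SE 0.32, adjusted p = 1.43e-09), and was lower in JI261 at each of the other stages too. Psat2g004560 had 907 and 918 CPM in JI261 at D3, against 4360 and 4300 CPM in JI1794 (-2.35, SE 0.14, adjusted p = 1.14e-07). Its order turned by D5, with 1060 and 1050 CPM in JI261 and 438 and 446 CPM in JI1794 (1.25, SE 0.14, adjusted p = 1.01e-05).

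At D4 Psat4g180800 had 1190 and 1340 CPM in JI261, against 0.0924 and 0.251 CPM in JI1794 (log2 difference 12.83, SE 0.51, adjusted p = 1.92e-08). The accessions did not differ by the test at D1, with 2.54 and 2.60 CPM in JI261 and 2.73 and 3.29 CPM in JI1794 (-0.14, SE 0.32, adjusted p = 0.799). The transcript rose between D1 and D3 in JI261, while in JI1794 it was under 1 CPM from D2 on. Ps_DOR2genes.26311, also outside the annotation, had 17300 and 8470 CPM in JI261 at D4, against 2170 and 2380 CPM in JI1794 (2.47, SE 0.29, adjusted p = 4.26e-05).

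Downward at D4, Psat0s3575g0040 had 0.0991 and 0.0429 CPM in JI261, against 36.3 and 51.8 CPM in JI1794 (-9.25, SE 0.44, adjusted p = 1.08e-07). Psat6g206160 had 1040 and 253 CPM in JI261, against 1830 and 3670 CPM in JI1794 (-2.12, SE 0.53, adjusted p = 0.00769). Without replicate 2 of JI1794 at D4 its adjusted p was 0.0717, and with the 4 libraries of D4 alone it was 0.0626. This feature is an abundant embryo transcript, at 39400 and 38100 CPM in JI261 embryos and 73800 and 73600 CPM in JI1794 embryos of D4, and the part of embryo material in its seed coat counts was not tested.

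At D5 Ps_DOR2genes.10847 had 65.5 and 58.4 CPM in JI261, against 0.0447 and 0.0522 CPM in JI1794 (log2 difference 10.28, SE 0.52, adjusted p = 3.12e-08). Psat1g073640 had 9800 and 10100 CPM in JI261, against 553 and 606 CPM in JI1794 (4.10, SE 0.23, adjusted p = 2.74e-08). At D3 its order was the reverse, with 354 and 341 CPM in JI261 and 4260 and 4280 CPM in JI1794 (-3.72, SE 0.22, adjusted p = 9.65e-08). It too is far higher in embryos of D5, at 104000 and 105000 CPM in JI261 and 5400 and 5390 CPM in JI1794, and the part of embryo material in its seed coat counts was not tested.

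Downward at D5, Psat2g180800 had 0.570 and 1.22 CPM in JI261, against 1150 and 1190 CPM in JI1794 (-10.35, SE 0.31, adjusted p = 2.72e-10). In JI1794 it was high at D1 and again at D5, and in JI261 at D1 alone (73.8 and 75.2 CPM). Psat7g244720 had 1760 and 2000 CPM in JI261, against 12000 and 12400 CPM in JI1794 (-2.70, SE 0.23, adjusted p = 1.71e-06). It was near 0 at D1 in both accessions and had passed 2000 CPM by D3 in JI1794, when JI261 was at 3.21 and 4.36 CPM.

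Psat1g175840, the most abundant transcript of several JI1794 libraries, was picked after its values were seen. It had 6500 and 6390 CPM in JI261 at D1, against 7830 and 6150 CPM in JI1794, with overlapping libraries. At D3 it had 8330 and 7340 CPM in JI261, against 15100 and 13900 CPM in JI1794, and at D4 8450 and 8560 CPM against 8280 and 7830 CPM. At D5 it kept 8840 and 10100 CPM in JI261, against 1140 and 1110 CPM in JI1794 (log2 difference 3.07, SE 0.14, adjusted p = 7.39e-09). In JI261 both D5 libraries lay above those of D1, and in JI1794 both lay below.

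The difference between the accessions changed with stage in 11801 of 30789 features (38.3%), by the test of the 3 later differences against that at D1. The difference at D5 lay above that at D1 in 5798 of them (18.8%) and below it in 6002 (19.5%). With library totals alone 7379 lay above and 4679 below, so this balance depends on the scaling. Psat3g179520 was lower in JI261 at D1, with 119 and 117 CPM against 603 and 732 CPM in JI1794, and higher at D5, with 336 and 326 CPM against 0.649 and 0.900 CPM in JI1794. Its highest sampled level was at D3 in JI261 (5290 and 8410 CPM) and at D2 in JI1794 (3370 and 2400 CPM). JI261 has no seed coat library of D2, so the stages of the peaks cannot be compared. Its log2 difference changed by 11.15 between D1 and D5 (adjusted p = 4.21e-09).

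Psat1g194480 had 5.80 and 8.58 CPM in JI261 at D1, against 28.8 and 24.5 CPM in JI1794. At D5 it had 34.7 and 37.7 CPM in JI261, against 0.0336 and 0.104 CPM in JI1794 (change 10.86, adjusted p = 7.71e-07). Both accessions had their highest sampled level at D3 or D2, and JI1794 had nearly lost the transcript at D5.

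Psat4g061200 and Psat7g207240 changed in the other direction and had their highest levels in JI1794 at D5. Psat4g061200 had 4.61 and 4.11 CPM in JI261 at D1, against 0.435 and 0.783 CPM in JI1794, and 0.278 and 0.302 CPM at D5, against 140 and 140 CPM (change -11.84, adjusted p = 2.52e-06). Psat7g207240 had 1.98 and 2.26 CPM in JI261 at D1, against 0.296 and 0.0750 CPM in JI1794, and 1.47 and 1.59 CPM at D5, against 154 and 146 CPM (change -10.20, adjusted p = 3.48e-07). Neither passed 6 CPM in a JI261 seed coat.

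Some features were at 0 counts in all 8 libraries of an accession while detected in all 8 of the other at a mean of at least 1 CPM. Of all 59594 features, 565 were of this kind at 0 in JI261 and 400 at 0 in JI1794. Loci outside the annotation made up 327 of the 565 and 317 of the 400, against 27737 of the 59594. Of the 565, 509 also had no count in the 6 JI261 embryo libraries, and of the 400, 372 had none in the 6 JI1794 embryo libraries. Embryos of the accession with counts in the seed coat held 539 of the 565 and 389 of the 400. The absence therefore held in both tissues for most of them. In the other 4 accessions, 158 of the 565 were detected in seed coats of all 4 and 47 in none, while 58 of the 400 were detected in all 4 and 69 in none. Any count in any seed coat library of an accession made a feature detected there. That is a lower bar than the mean of at least 1 CPM used to pick the features. Reads were mapped to the genome of the cultivar Cameor, so a missing transcript and one whose reads did not map cannot be told apart.

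Psat7g025840 is an example at 0 in JI1794. It averaged 132 ± 25.4 CPM in JI261 seed coats (SD, n = 8) and had no count in JI1794 seed coats or embryos, which makes it at least 32610-fold higher in JI261, with 3 counts over the 8 libraries as the floor. Psat3g082480 averaged 82.3 ± 75.3 CPM in JI261 (SD, n = 8), with 165 and 164 CPM at D1 and 7.56 and 6.74 CPM at D5, and was at least 20748-fold higher. Seed coats of Cameor, JI92, JI64 and PI358617 held at most 0.0152 CPM of Psat7g025840 on average and 0 of Psat3g082480.

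Psat6g135360 is an example at 0 in JI261. JI1794 seed coats averaged 65.1 ± 18.7 CPM (SD, n = 8), so it was at least 12284-fold lower in JI261. Ps_DOR2genes.15815 averaged 65.6 ± 76.0 CPM in JI1794 (SD, n = 8) and was highest at D5, with 189 and 185 CPM, so it was at least 11397-fold lower in JI261. On average, seed coats of Cameor, JI92, JI64 and PI358617 held at most 0.246 CPM of Psat6g135360 and 0.0276 CPM of Ps_DOR2genes.15815. JI1794 was thus the accession that stood apart in both. The floors cover counting error only.

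Loci outside the annotation and annotated genes were counted apart. At single stages the shares called were 36.6% of the 7400 loci outside it and 34.4% of the 20711 genes in the identifier series Psat1g to Psat7g at D1, 36.6% and 48.0% at D3, 37.9% and 38.8% at D4, and 42.7% and 53.6% at D5. Over all stages 64.6% of the loci outside it passed, against 45.4% of the Psat1g to Psat7g genes and 46.1% of the 2678 in the series Psat0s. Their median absolute log2 difference was 4.95, against 0.79 for the Psat1g to Psat7g series, and their median level was 0.207 CPM, against 6.19 CPM. The order of the classes thus differed between the all-stage fit and the single stages D3 and D5, and how the level takes part in this was not tested. The difference changed with stage in 9.09% of these loci and in 48.5% of the Psat1g to Psat7g genes. These shares were not tested against each other.

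Differences were spread over the numbering of the genes. Between 44.1% and 47.6% of the genes passed in each of the 7 series Psat1g to Psat7g. In 411 windows of 50 tested neighbours, a median of 22 passed, with 11 in the lowest window and 36 in the highest. The highest window ran from Psat6g087440 to Psat6g092080, with 8 genes higher and 28 lower in JI261. It held the longest run of neighbours lower by at least 2 log2 units, 6 genes from Psat6g089400 to Psat6g090040. The longest run upward was 3 genes.

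The embryos of the same accessions were measured in libraries of their own, and the labels do not state whether they came from other plants than the seed coats. Over D3 to D5, with 6 libraries of each accession, 18594 of 28098 features passed (66.2%), 9825 higher in JI261 (35%) and 8769 lower (31.2%). Of the 5697 features higher in JI261 seed coats and tested in both tissues, 3941 were higher in JI261 embryos too. That is 69.2% of the seed coat calls and 46.7% of the embryo calls, where 33.6% of all 25126 features tested in both were higher in the embryo. Of the 7026 lower ones, 4500 were lower in embryos too, 64% of the seed coat calls and 57.7% of the embryo calls, where 31.1% of all were. Opposite calls numbered 373 and 569. Of all seed coat calls, 5697 of 6960 higher and 7026 of 8462 lower ones passed the low-count filter in the embryo. A feature near 0 in an accession can pass it only through the other accession, so these shares are a description of the features tested.

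The seed coat carries the mother's genotype and the embryo that of the next generation, and both belong to the same accession. The seed coat difference itself departed from the embryo difference in 11631 of 32536 features (35.7%) in the test of tissue by accession over D3 to D5, 4509 above the embryo difference (13.9%) and 7122 below it (21.9%).

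**Figure D5:**
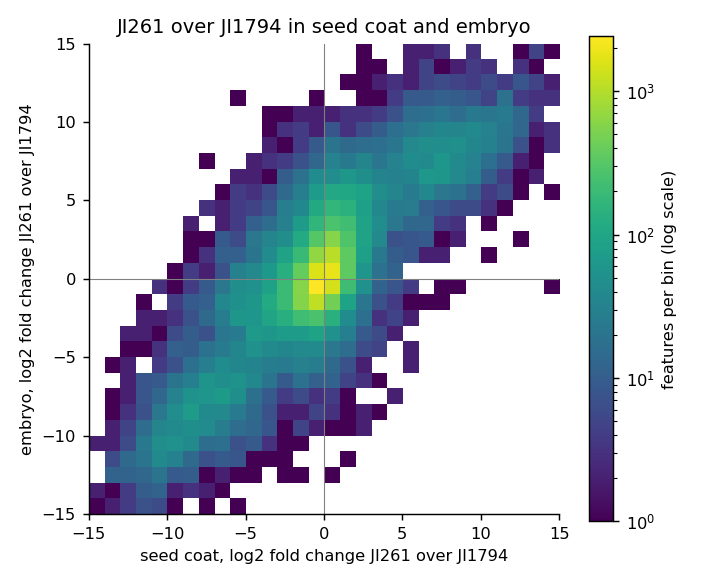
Log2 fold change of JI261 over JI1794 in seed coats (all stages, horizontal axis) and in embryos (D3 to D5, vertical axis) for the 25126 features tested in both tissues. Colour gives the number of features in each bin of 1 by 1 log2 units on a log scale, and values beyond 15 are drawn in the outermost bins. The fullest bins lie near 0 in both tissues, and features low in an accession are drawn only where the other accession passed the low-count filters.

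Within the naming rule, Psat4g186960 had the largest upward difference in the embryo, with 393 to 1540 CPM in JI261 embryos and 0.0630 to 1.75 CPM in JI1794 embryos (log2 difference 11.66, SE 0.73, adjusted p = 3.21e-06). In the seed coat it had 5.92 to 120 CPM in JI261 and 0 to 0.598 CPM in JI1794, the same direction at a lower level. Psat1g122040 had the largest downward one, with 0.276 to 1.64 CPM in JI261 embryos and 213 to 1750 CPM in JI1794 embryos (-9.97, SE 0.80, adjusted p = 9.63e-06). In JI1794 seed coats its replicates stood far apart at D3 (2.73 and 81.9 CPM), D4 (0.970 and 47.7 CPM) and D5 (47.6 and 0.952 CPM), so its seed coat level there rests on 1 library a stage.

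The other accessions were placed on the axis between JI261 and JI1794 by their mean log2 level at D3 and D4. For this, 1727 features higher in JI261 and 2325 lower were taken, each called, at 2 log2 units or more and without overlap at any stage. Among the higher ones, JI64 lay nearer to JI261 in 21.3%, Cameor in 17.7%, JI92 in 20.7% and PI358617 in 32.2%. In 812 of the 1727 none of the 4 lay nearer to JI261. Among the lower ones, JI64 lay nearer to JI261 in 57.6%, Cameor in 49.2%, JI92 in 51.9% and PI358617 in 67.6%, and in 291 of the 2325 none did. JI64, the third wild accession, thus lay nearer to JI1794 in most features higher in JI261 and nearer to JI261 in most features lower in it. JI92 and PI358617 did so too, and Cameor did so among the higher features alone, so the pattern was not particular to JI64. The features were picked for a gap between JI261 and JI1794, and how far that choice shapes these shares was not tested.

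JI261 and JI1794 were also placed among genes that separate JI64 from the domesticated Cameor and JI92 at D3 and D4. Of 521 genes higher in JI64, 62 lay on the side of JI64 in both, 56 in JI261 alone, 59 in JI1794 alone and 344 in neither. Of 624 genes lower in JI64, 206 lay on its side in both, 142 in JI261 alone, 52 in JI1794 alone and 224 in neither. In total 118 of the higher genes lay on the side of JI64 in JI261 and 121 in JI1794, against 117 in PI358617, labelled subsp. abyssinicum. Of the lower genes, 348 did in JI261 and 258 in JI1794, against 309 in PI358617. The wild accessions thus gave totals close to that of PI358617 for the higher genes, and totals on either side of it for the lower genes.

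The number of calls between the wild accessions was set beside that of other pairs at the same 4 stages. JI261 and the landrace JI92 differed in 14973 of 34280 features (43.7%), with 6344 higher in JI261 (18.5%) and 8629 lower (25.2%). JI1794 and JI92 differed in 11345 of 34387 (33%), with 5334 higher in JI1794 (15.5%) and 6011 lower (17.5%). The domesticated Cameor and JI92 differed in 19357 of 34260 (56.5%), with 9638 higher in Cameor (28.1%) and 9719 lower (28.4%). Each pair with JI92 had 7 JI92 libraries, and these pairs share libraries. With the replicate block and D5 left out, JI261 and JI92 differed in 7199, JI1794 and JI92 in 5927, and Cameor and JI92 in 13120. With D3 and D4 only and no block, the counts were 12205, 10197 and 18719. The differences between these counts were not tested. For JI261 and JI1794 neither alternative setting is given here, so that pair stands beside the others by its main fit alone.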

How the data were processed

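The authors deposited a table of raw counts per feature and a table of FPKM (counts scaled by length and mapped total) for 59594 features. Per the series' design text, reads were mapped to the Cameor genome, version 1.0, and HISAT2 2.1.0 and StringTie 2.1.0 are listed, without a role, per the submitters' processing notes. How reads were counted, with or without strand or multiple matches, is not given in the sources used, so near-identical and overlapping genes are uncertain. Messenger RNA was enriched with oligo(dT), per the labels' protocols.

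Tests ran in R 4.3.3 with edgeR's quasi-likelihood method (version 4.0.16, TMM scaling, default low-count filter, Benjamini-Hochberg, threshold 0.05). Stage was a term over all stages, and single stages came from a fit with 1 term per accession and stage, so each 2-against-2 test shared its spread over 8 groups. TMM factors ran from 0.675 to 1.09 in JI261 and from 0.909 to 1.46 in JI1794. CPM levels and library overlap used 1 TMM scale over all 117 libraries, while shares of counts, the stage score (log2(CPM + 1)) and the lists used raw totals. The code was tested on simulated data. Alternatives were RLE factors, no filter, DESeq2 1.42.0, limma (version 3.58.1) with FPKM on a log2 scale at pseudocounts of 1 and 0.1, a replicate block, covariates, sums, and left-out libraries and stages. Scaling by totals alone and D2 in place of D3 were added after seeing the data.

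Lists came from PI358617 libraries: seed coat against embryo at D2 to D4 (300 each, and 50 abundant embryo genes), and D1 against D5 (300 each). The members and lists were chosen with earlier results of these data known. Named features passed the threshold without library overlap, with at least 5 CPM in the higher accession and 3 counts in every library of the lower. In each direction the largest difference and the most abundant feature with an absolute log2 difference of at least 2 were named. For the test of stage, they were the 2 largest changes between D1 and D5 in each direction, and for features at 0, the 2 most abundant. Of the table's rows, 20 repeated an identifier and were not named.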

Additional observations from a re-analysis of the deposited data

Results flagged for a closer look

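The difference between JI261 and JI1794 seed coats was not the same at all stages in 11801 features, by edgeR's quasi-likelihood test of the differences at D3, D4 and D5 against that at D1 (adjusted p under 0.05). Among features with at least 3 counts in all 16 libraries, the largest changes of the log2 difference between D1 and D5 were 11.15 in Psat3g179520 and 10.86 in Psat1g194480. In the other direction they were -11.84 in Psat4g061200 and -10.20 in Psat7g207240. The 4 features were picked for the size of these changes, so the agreement of their libraries at D1 and D5 is no separate support. The stage scores of the accessions differed from D3 on, and their part in these changes was not tested.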

How the results depend on the processing

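The all-stage count of 15422 kept within 1.5 times under RLE factors, no filter, DESeq2, limma, each left-out library (14090 to 15177) and each left-out stage. It was 10223 with the stage score as a covariate and 1634 with libraries summed per group, and 919 and 1147 without replicate 1 and without replicate 2, where 1 library per group remained. Replicate numbers did not pair the samples: deviations of same-numbered libraries correlated at -0.027 to -0.006. With the replicate block 10328 features passed over all stages, 6860 at D1 and 7614 at D4, against 10781 and 11853 without it, and with D5 left out the pair JI261 and JI92 had 7199 and the pair JI1794 and JI92 had 5927. limma on log2(FPKM + 1) and on log2(FPKM + 0.1) called 16632 and 16196 features at D1, and 19752 and 18682 for accession by stage, against 11801. These limma fits tested 41420 features and used the authors' FPKM, and over all stages at a pseudocount of 1 they gave 5160 higher and 10630 lower calls. Leaving out a library of the stage gave 6741 to 7654 calls at D1, 10551 to 13205 at D3, 8398 to 10929 at D4 and 12095 to 12704 at D5, and 9983 to 12978 for accession by stage. Scaling by library totals turned the median of the embryo-enriched list over all stages to -0.11, against 0.13. Of 512 checks of named features, 505 kept direction and call and 7 kept direction alone. These features were named from the main fits, so this tally is no separate support. In the checks of list medians, 110 were tallied as moved by under 0.25 log2 units, 29 as moved by more and 1 as reversed. The embryo-enriched medians over all stages and at D4, both given above, crossed 0 with library totals. The tally thus does not count every crossing of 0 as reversed. Features with few counts are limited by depth, and the 2 libraries per group limit every stage.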
